A study of Bos taurus with 40 samples.

Results

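The facilitative glucose transporters are membrane proteins, encoded by the SLC2A genes and also called GLUT proteins, that let glucose, fructose and related sugars pass through a membrane along their concentration gradient without using energy. The members described here were taken by gene symbol from a list of 10 names, SLC2A1, SLC2A2, SLC2A3, SLC2A4, SLC2A5, SLC2A6, SLC2A8, SLC2A10, SLC2A12 and SLC2A13. All 10 were present among the 13570 genes of the count tables, and all 10 had reads in at least 1 library. The members differ in substrate, in affinity and in whether they sit in the outer membrane or inside the cell, so each tissue uses its own set. In ruminants little glucose is absorbed from the gut, because the rumen ferments most dietary carbohydrate, and the liver makes the glucose that muscle, fat and other organs take up.

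RNA-seq libraries came from 10 Korean cattle older than 22 months at slaughter, 5 cows (female) and 5 bulls (male), with no treatment named in the labels. From each animal came 1 library of liver, 1 of fat from the abdomen, 1 of the longissimus dorsi muscle and 1 of the pituitary gland, which gives 40 libraries, 10 per tissue and 5 per tissue and sex. The study asked which genes differ between the sexes in these tissues. The 4 libraries of 1 animal are not independent of each other, and whole tissue was used, so each value is a mixture over all cells of the tissue.

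Between 5173092 and 19165864 reads per library lay on genes, with a median of 10005607. Levels are given as CPM, the reads of a gene per 1000000 reads of the library after TMM scaling, a scaling that takes out differences in RNA composition between libraries. A count of 3 reads, taken as the floor of detection, corresponds to between 0.157 and 0.580 CPM before that scaling, depending on the library. Levels are compared across tissues for 1 gene at a time and not between genes, because counts were not divided by transcript length. The defining markers of each labelled tissue were high in that tissue. The 5 hepatocyte markers together reached at least 94180 CPM in every liver library and at most 1874 CPM in any library of another tissue. The 4 adipocyte markers present in the tables (ADIPOQ was not among them) reached at least 5448 CPM in fat and at most 663 CPM elsewhere. The 5 muscle fibre markers and the 5 anterior pituitary markers reached at least 89624 CPM in muscle and 81583 CPM in pituitary, and at most 139 CPM and 385 CPM in other tissues. Of the 40 libraries, 2 stood apart by their sex-linked genes. The liver library labelled bull 3 held 0 reads of the Y-linked genes DDX3Y, USP9Y and ZFY and 1401 CPM of XIST, the RNA of the inactive X chromosome, whereas the 4 other bull livers held below 1 CPM of XIST. Its profile was closest to that of the liver of cow 4 (r = 0.993 across genes, the highest of 45 liver pairs), and their chi-square per degree of freedom, 15.8, was the lowest of these pairs, whose median was 117. The 2 libraries were not identical and both were kept, and whether they come from separate animals was not tested. The fat library of bull 5 held 1.78 CPM of USP9Y against 28.1 to 34.1 CPM in the fat of the other bulls. Calls of members that change without either library are given with both values.

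Tissue differences were tested with the edgeR quasi-likelihood test with sex as a covariate, over the 13148 genes with at least 1 read, and a difference was called at a Benjamini-Hochberg adjusted p below 0.05. Most members differed between tissues, as did most genes of the tables. Between liver and fat, 8 of the 10 members were called, 3 higher in liver and 5 higher in fat. Of all genes, 64.3% were called in this pair, 28.9% higher in liver and 35.4% higher in fat. Between liver and muscle, 7 members were called, 3 higher in liver and 4 higher in muscle, against 62.1% of all genes (28.0% higher in liver, 34.0% higher in muscle). Between liver and pituitary, 8 members were called, 2 higher in liver and 6 higher in pituitary, against 64.5% of all genes (29.4% and 35.1%). Fewer members were called in the pairs without liver in this fit. Between fat and muscle, 5 members were called, 3 higher in fat and 2 higher in muscle, against 59.6% of all genes (32.8% and 26.8%). Between fat and pituitary, 6 members were called, 2 higher in fat and 4 higher in pituitary, against 64.6% of all genes (31.8% and 32.8%). Between muscle and pituitary, 5 members were called, 1 higher in muscle and 4 higher in pituitary, against 64.0% of all genes (31.5% and 32.5%). The counts of members lay on both sides of these backgrounds, between 50% and 80% of the 10. With library sizes alone, without TMM scaling, the liver pairs had 8, 6 and 8 calls and the other pairs 8, 7 and 7. Of the 13148 genes, 9129, 7981 and 9707 were then called in the liver pairs and 8894, 8363 and 9241 in the others.

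The members differed more in the size of their differences. The median absolute log2 fold change over the 10 members was 2.77 between liver and fat and 2.77 between liver and muscle, where the median over all genes was 1.03 and 1.05. Between liver and pituitary it was 1.48 against 1.04 over all genes, between fat and muscle 1.31 against 0.95, between fat and pituitary 1.85 against 0.99, and between muscle and pituitary 1.82 against 1.06. The 6 pairs share their tissues, so these medians are not 6 separate results. SLC2A4 was the member called in all 6 pairs. SLC2A3, SLC2A5, SLC2A10 and SLC2A12 were called in 5 pairs each, SLC2A6 in 4, SLC2A2, SLC2A8 and SLC2A13 in 3 each, and SLC2A1 in 0. Of all genes, 59.6% to 64.6% were called in each single pair. The number of pairs per gene was not counted over all genes, so these counts are not a trait of the members. In bulk RNA a lower level can mean fewer cells that express the gene or less RNA per cell, and these cannot be told apart here.

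**Figure D1:**
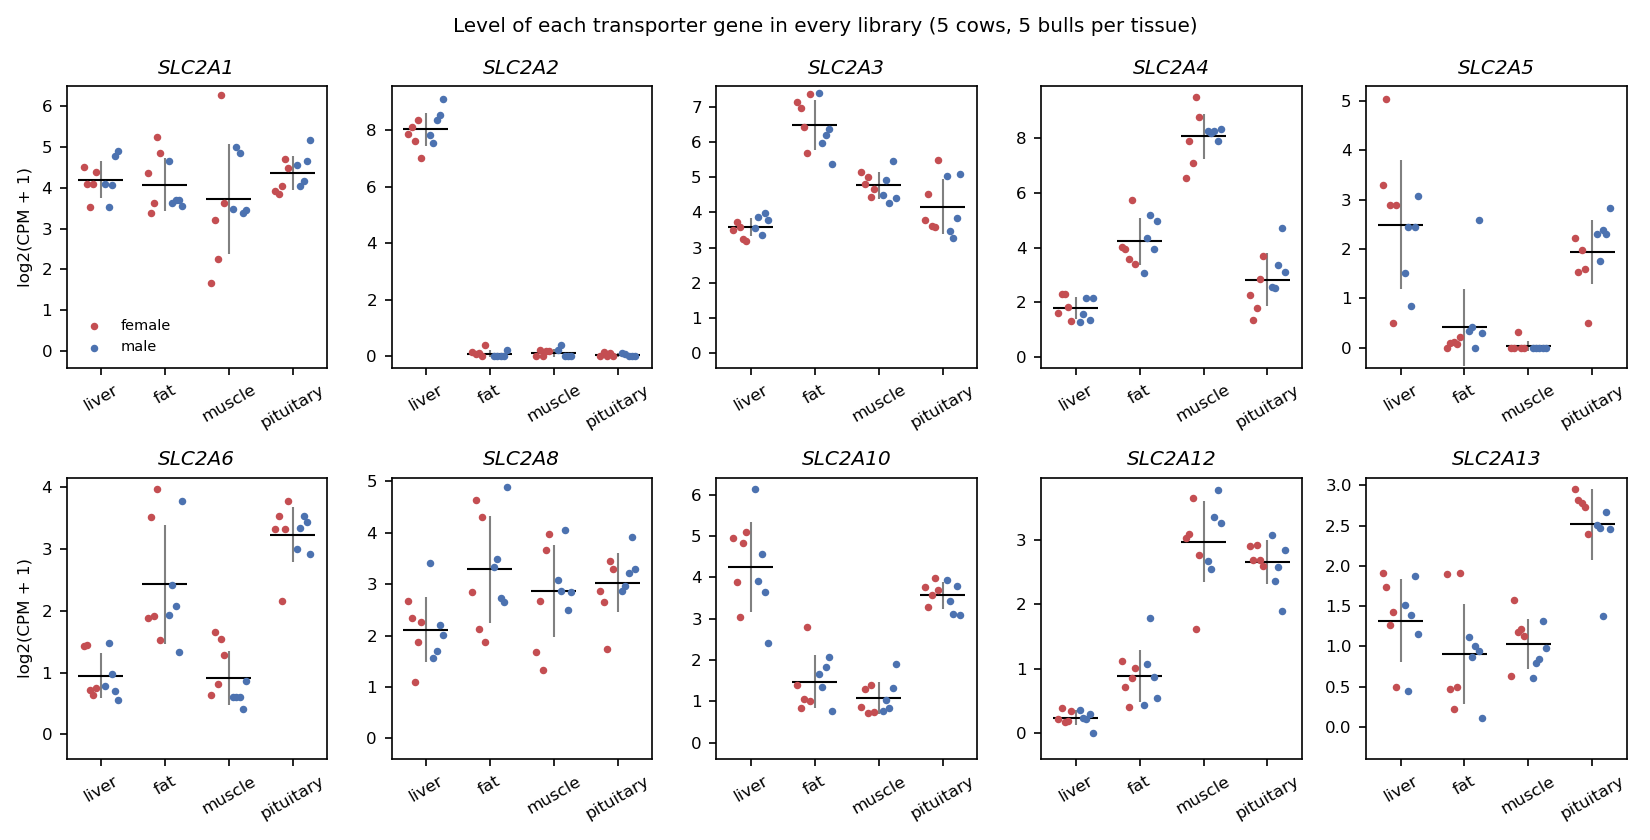
Level of each of the 10 members in every library, as log2(CPM + 1), in liver, fat, muscle and pituitary, with 1 panel and 1 vertical scale per gene. Points are animals (red, 5 cows; blue, 5 bulls), black bars are means over the 10 animals and grey lines their SD on the log scale; SLC2A2 stands out in liver, SLC2A3 in fat and SLC2A4 in muscle, and the cow and bull points overlap in every panel.

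SLC2A2 encodes GLUT2, the low-affinity transporter through which hepatocytes both take up and release glucose. Its level in liver was 280.4 ± 119.7 CPM (SD, n = 10), with a lowest value of 128.2 CPM in cow 5, a median of 251.4 CPM and a highest value of 548.0 CPM in bull 5. In fat, muscle and pituitary no library held more than 4 reads. Over 10 libraries each, 25461 reads were counted in liver, against 10 in fat, 8 in muscle and 5 in pituitary. The liver libraries therefore lay entirely above those of the other tissues. The ratio of scaled reads was 4169 for liver to fat (95% counting interval 2266 to 8694), 2697 for liver to muscle (1369 to 6248) and 9253 for liver to pituitary (3964 to 28500). These intervals cover counting error only. The 3 differences passed the test with adjusted p-values of 3.19e-25, 1.36e-24 and 1.2e-25 in the edgeR quasi-likelihood fit. Differences among fat, muscle and pituitary lay under the 3-read floor in most libraries and were not detectable at this depth. Hepatocyte markers were above 0 in those tissues too, summing to between 68.2 and 1874 CPM in fat, 10.3 and 117 CPM in muscle and 46.8 and 199 CPM in pituitary. The share of the few SLC2A2 reads that comes with them was not tested.

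SLC2A4 encodes GLUT4, the transporter that insulin brings from vesicles to the surface of muscle fibres and adipocytes. Its order was muscle, fat, pituitary and liver, and every step of that order passed the test. Muscle libraries held 310.0 ± 176.4 CPM, from 91.7 CPM in cow 1 to 728 CPM in cow 4 with a median of 300.7 CPM. Fat held 21.0 ± 14.4 CPM, from 7.33 CPM in bull 1 to 53.2 CPM in cow 4. Muscle was above fat in 10 of 10 animals, and the lowest muscle library exceeded the highest fat library. The log2 fold change of muscle against fat was 3.89 (SE 0.37, adjusted p = 6.77e-11), that of fat against pituitary 1.46 (SE 0.37, adjusted p = 0.000885), and that of pituitary against liver 1.56 (SE 0.40, adjusted p = 0.000844), all from the edgeR quasi-likelihood test. Pituitary held 7.75 ± 6.89 CPM, with bull 4 at 25.3 CPM and the rest between 1.53 and 11.9 CPM. Liver held 2.57 ± 1.02 CPM, from 1.43 to 3.97 CPM. The pituitary range overlapped those of fat and liver, fat and liver did not overlap, and muscle stood clear of all others. Muscle libraries were also unequal among themselves. The 5 bulls lay between 236.0 and 327 CPM, whereas the 5 cows spread from 91.7 to 728 CPM. Cow 4 had the lowest TMM factor of the muscle libraries, 0.518, which raises its scaled values. Across genes, its muscle library and that of cow 1 had the lowest r of the 45 muscle pairs, 0.916 against a median of 0.965. By library size alone the cows spread from 83.7 to 377 CPM and the bulls from 185 to 235 CPM.

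SLC2A12 encodes GLUT12, another transporter that insulin can move to the surface in muscle. Muscle held 7.49 ± 3.20 CPM (2.07 to 12.8, median 7.35) and pituitary 5.46 ± 1.35 CPM (2.73 to 7.44, median 5.47). These were the tissues with the higher levels, and they did not differ by the test (log2 fold change 0.45, SE 0.29, 95% interval -0.13 to 1.03, adjusted p = 0.167 in edgeR). Fat was lower than muscle by a log2 fold change of 3.004 (SE 0.30, adjusted p = 6.16e-11), with 0.924 ± 0.622 CPM. Liver was lowest, with 16 reads in all 10 libraries and at most 3 in any of them, so its libraries lay at or under the floor. The ratio of scaled reads to liver was 39.8 for muscle (95% counting interval 24.3 to 70.1), 28.4 for pituitary (17.4 to 50.001) and 5.001 for fat (2.97 to 9.01). Of the muscle values the lowest, 2.07 CPM, was from cow 4, the animal with the highest SLC2A4 and SLC2A1 in muscle.

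SLC2A1 and SLC2A3 encode GLUT1 and GLUT3, which serve the basal uptake of glucose in many cell types, GLUT1 also at blood-tissue barriers and GLUT3 with high affinity in neurons. SLC2A1 did not separate the tissues. Its means were 18.2 ± 6.10 CPM in liver, 17.5 ± 9.27 CPM in fat, 19.0 ± 22.0 CPM in muscle and 20.3 ± 6.62 CPM in pituitary. No pair was called, with the 95% intervals of the log2 fold changes lying between -0.97 and 0.83, and the direction of the differences among liver, fat and muscle turned with library sizes alone. Differences within those intervals cannot be told from 0 here. The spread over animals was unequal, with a coefficient of variation of 116% in muscle and 32.6% to 53.0% in the other tissues. In muscle, cow 4 held 75.7 CPM, bull 2 held 30.8 CPM and bull 3 held 27.8 CPM, while the other 7 animals lay between 2.21 and 11.4 CPM. By library size alone cow 4 held 39.2 CPM, and the coefficient of variation in muscle was 93.8%.

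SLC2A3 was highest in fat, at 98.4 ± 46.2 CPM, from 40.6 CPM in bull 5 to 166 CPM in bull 1 with a median of 83.5 CPM. Muscle followed with 27.1 ± 7.77 CPM (18.2 to 43.2), then pituitary with 19.8 ± 12.3 CPM (8.78 to 43.8) and liver with 11.2 ± 2.23 CPM (8.20 to 14.9). Fat was higher than each other tissue in 10 of 10 animals. The log2 fold change of fat was 1.86 against muscle (SE 0.26, adjusted p = 1.52e-07), 2.31 against pituitary (SE 0.26, adjusted p = 1.04e-09) and 3.13 against liver (SE 0.27, adjusted p = 9.21e-13) in the edgeR quasi-likelihood test. Muscle and pituitary, neighbours in this order, did not differ by the test (log2 fold change 0.46, 95% interval -0.08 to 0.99, adjusted p = 0.130). With the animal as a block, muscle was called higher (0.58, adjusted p = 0.0406), and so it was without cow 5 (0.69, adjusted p = 0.0211), whose pituitary held the highest value. The call of pituitary over liver (0.81, adjusted p = 0.00775) was lost without cow 5 (0.56, adjusted p = 0.0604). Markers of other cell types followed this order for some lists only, and the leukocyte markers had their highest median in liver, where SLC2A3 was lowest. The 5 endothelial markers summed to between 1171 and 2413 CPM in fat, 585 and 984 CPM in muscle, 343 and 844 CPM in liver and 151 and 295 CPM in pituitary. The 5 leukocyte markers summed to 181 to 673 CPM in fat, 34.1 to 162 CPM in muscle, 468 to 886 CPM in liver and 39.8 to 102 CPM in pituitary. The 5 fibroblast markers and the 4 markers of glia and neural lobe in the tables had the same order of medians as SLC2A3 means. The fibroblast sums were 2048 to 27277 CPM in fat, 1490 to 5645 CPM in muscle, 396 to 1301 CPM in pituitary and 218 to 408 CPM in liver. The sums of the glia and neural lobe list were 303 to 1122 CPM in fat, 58.5 to 239.8 CPM in muscle, 70.7 to 169 CPM in pituitary and 4.44 to 16.5 CPM in liver. Every fat library lay above every pituitary library for this list, so its sums are not read as an amount of glia. The 4 adipocyte markers were highest in fat too (given above), then in muscle at 26.4 to 663 CPM, with no marker of these lists at 0 in a whole tissue. Their part in the SLC2A3 differences was not tested.

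SLC2A5 encodes GLUT5, a transporter of fructose. It was found in liver and pituitary and hardly at all in muscle. Liver held 7.28 ± 9.05 CPM with a median of 5.44 CPM, and pituitary held 3.15 ± 1.58 CPM (0.410 to 6.13) with a median of 3.32 CPM. The liver values ran from 0.421 CPM in cow 4 to 31.7 CPM in cow 2, and the next lowest, 0.806 CPM, was the library labelled bull 3. Liver and pituitary did not differ by the test (log2 fold change 1.42, SE 0.61, adjusted p = 0.0522 in edgeR). The difference depended on the fit. It was 0.80 on the log2 scale with the animal as a block (adjusted p = 0.259), 0.61 with library sizes alone (adjusted p = 0.408) and 0.65 without cow 2 (adjusted p = 0.366), the animal with the highest liver value, while other fits passed the threshold. With RLE factors the value was 1.46 (adjusted p = 0.0477). Without the liver library labelled bull 3 the log2 fold change was 1.63 with an adjusted p of 0.0253, and without the fat library of bull 5 it was 1.48 with an adjusted p of 0.0417. Leaving out bull 1, bull 3, bull 4 or bull 5 with all tissues also gave a call, with adjusted p-values from 0.0271 to 0.0475. In muscle, 2 reads were counted over 10 libraries, both in cow 3, against 699 in liver and 497 in pituitary. The ratio of scaled reads was 296 for liver to muscle (95% counting interval 81.7 to 2451) and 116 for pituitary to muscle (31.9 to 960). Fat lay between, and its mean of 0.625 ± 1.56 CPM rested on 1 animal. Bull 4 held 5.05 CPM from 60 reads, whereas the other 9 fat libraries held 0 to 6 reads each. The call of fat over muscle (log2 fold change 3.82, adjusted p = 0.00655) was lost without bull 4 (1.81, adjusted p = 0.178), and without cow 3, which has the only muscle reads, it was 5.80 (adjusted p = 0.00643). Liver exceeded fat by a log2 fold change of 3.89 (adjusted p = 1.9e-05) with bull 4 and 5.75 without, and pituitary exceeded fat by 2.48 (adjusted p = 0.00166) with bull 4 and 4.43 without. Without cow 2, the difference of liver to fat was 3.09 and that of liver to muscle 6.84, which the fit put at 7.72 with all animals and at 9.59 without cow 3. Pituitary exceeded muscle by 6.30 with all animals and by 8.13 without cow 3. All of these kept their call.

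**Figure D2:**
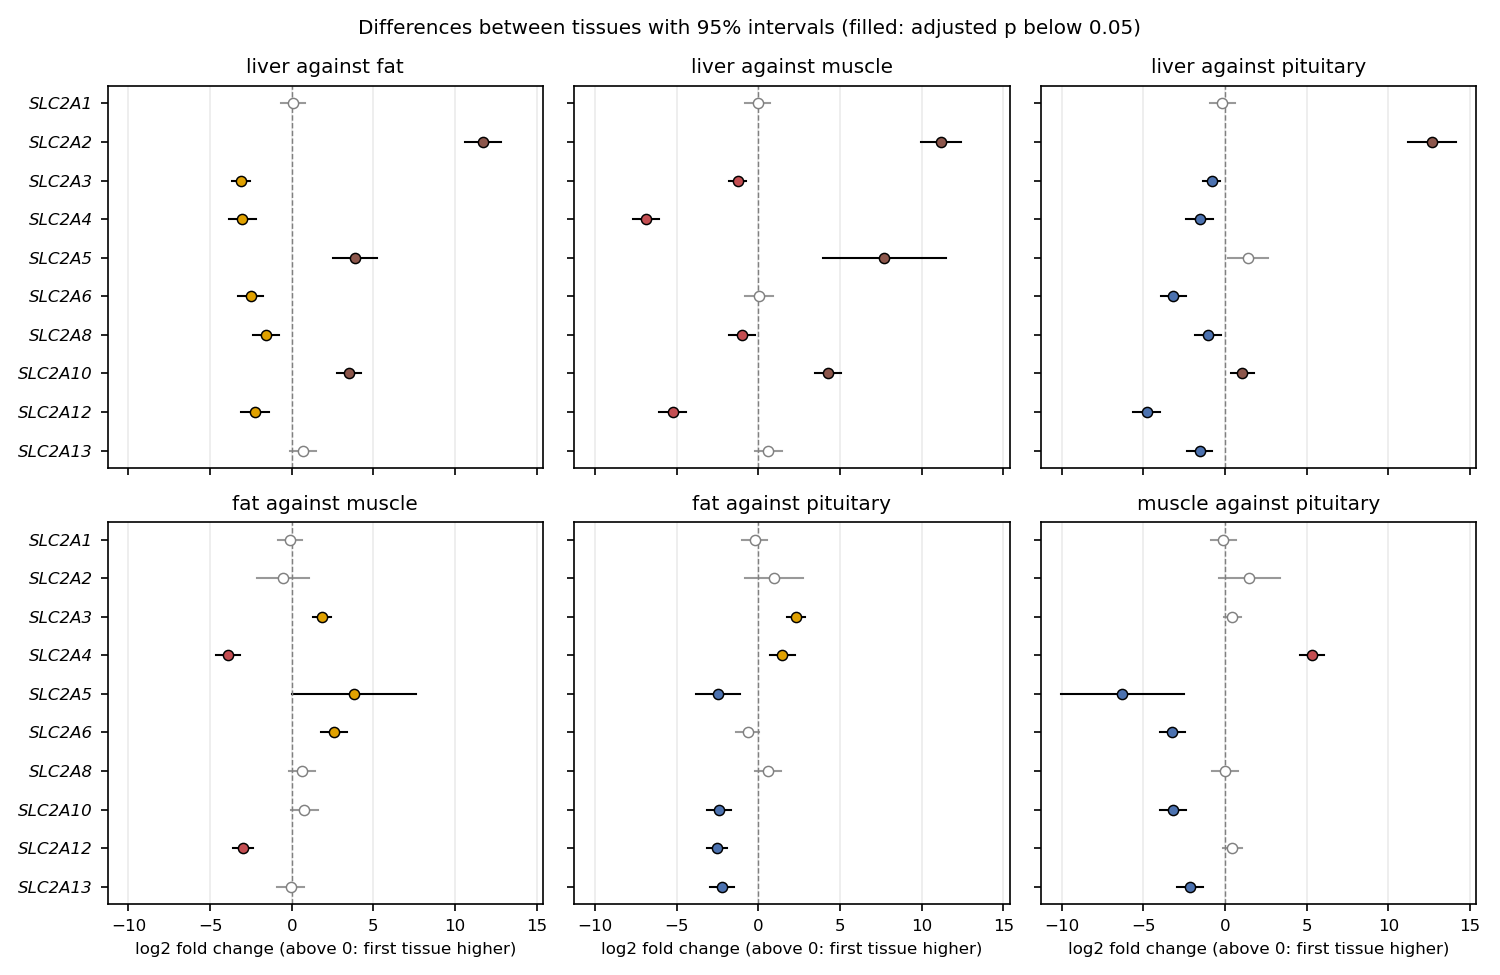
Log2 fold change of each member (rows) in the 6 pairs of tissues (panels), with 95% intervals from the edgeR quasi-likelihood fit over 40 libraries; values above 0 are higher in the tissue named first. Filled points passed an adjusted p of 0.05 and are coloured by the higher tissue (brown liver, yellow fat, red muscle, blue pituitary); SLC2A1 lies near 0 in all 6 panels and SLC2A2 reaches the largest values in the 3 liver panels.

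SLC2A6, SLC2A8 and SLC2A10 encode GLUT6, GLUT8 and GLUT10, members that reside mostly on membranes inside the cell. SLC2A6 was highest in pituitary, at 8.80 ± 2.56 CPM (3.48 to 12.7, median 9.11), followed by fat at 5.71 ± 4.95 CPM (1.51 to 14.8, median 3.004). Liver and muscle were lower, at 0.988 ± 0.535 CPM and 0.958 ± 0.649 CPM, with 2 to 25 reads per library, and did not differ by the test (log2 fold change 0.04, 95% interval -0.81 to 0.90, adjusted p = 0.962). Pituitary lay above muscle without overlap (log2 fold change 3.22, SE 0.39, adjusted p = 2.57e-09 in edgeR) and above liver without overlap (3.17, SE 0.38, adjusted p = 2.36e-09). Fat exceeded liver by 2.53 (adjusted p = 3.34e-07) and muscle by 2.57 (adjusted p = 3.61e-07), in 10 of 10 animals each. Pituitary and fat did not differ by the test (0.65, SE 0.34, adjusted p = 0.0979). That pair was called with the animal as a block (0.90, adjusted p = 0.0154), without the fat library of bull 5 (1.01, adjusted p = 0.00867), without bull 5 (0.95, adjusted p = 0.0194) and without cow 4 (0.89, adjusted p = 0.0279). The fat values fell apart into 3 libraries at 10.5 to 14.8 CPM (cow 2, cow 4 and bull 5) and 7 at 1.51 to 4.32 CPM.

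SLC2A8 did not separate fat, pituitary and muscle. Fat held 11.3 ± 9.07 CPM (2.68 to 28.4), pituitary 7.69 ± 3.10 CPM (2.32 to 14.0), muscle 7.56 ± 4.86 CPM (1.52 to 15.6) and liver 3.75 ± 2.37 CPM (1.15 to 9.58), and all 4 ranges overlapped. The differences among fat, pituitary and muscle did not pass the test, with adjusted p-values of 0.194 to 0.9747 in edgeR. The 3 fat libraries with the highest SLC2A8, at 28.4 CPM in bull 5, 23.7 CPM in cow 2 and 18.8 CPM in cow 4, were those with the highest SLC2A6. Liver was lower than fat by a log2 fold change of 1.59 (SE 0.40, adjusted p = 0.000694) in 8 of 10 animals. Its differences from the other tissues were less stable. The call against muscle (log2 fold change 0.997, adjusted p = 0.0311) was lost without the liver library labelled bull 3 (0.93, adjusted p = 0.0526), with RLE factors (0.86, adjusted p = 0.0601), and when bull 2, bull 3, bull 5, cow 4 or cow 5 was left out (0.78 to 0.96, adjusted p from 0.0591 to 0.114). The call against pituitary (1.02, adjusted p = 0.0243) was lost without bull 2, bull 4 or cow 4 (0.89 to 0.97, adjusted p from 0.0512 to 0.0698).

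SLC2A10 was highest in liver, at 23.5 ± 19.1 CPM, from 4.34 CPM in bull 5 to 69.9 CPM in bull 1 with a median of 18.5 CPM. Pituitary held 11.1 ± 2.63 CPM (7.57 to 14.8), with a coefficient of variation of 23.6% against 81.1% in liver. Fat held 2.07 ± 1.60 CPM and muscle 1.20 ± 0.665 CPM. The pituitary libraries lay above all fat and muscle libraries. The log2 fold change of liver was 4.26 against muscle (SE 0.40, adjusted p = 6.04e-12), 3.49 against fat (SE 0.36, adjusted p = 2.32e-10) and 1.07 against pituitary (SE 0.35, adjusted p = 0.00787) in the edgeR quasi-likelihood test. Pituitary exceeded fat by 2.42 (adjusted p = 4.16e-07) and muscle by 3.19 (adjusted p = 5.36e-09), in 10 of 10 animals each. The call of liver over pituitary was lost without bull 1 (0.75, adjusted p = 0.0630). Fat and muscle did not differ by the test (0.77, adjusted p = 0.0990), and were called apart without bull 5 (1.25, adjusted p = 0.00515).

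SLC2A13 encodes HMIT, which carries myo-inositol together with protons and is best known from brain. It was highest in pituitary, at 4.92 ± 1.42 CPM (1.60 to 6.75, median 5.01). Liver held 1.63 ± 0.829 CPM, muscle 1.08 ± 0.461 CPM and fat 1.05 ± 0.965 CPM, with 1 to 53 reads per library. Pituitary exceeded fat by a log2 fold change of 2.23 (SE 0.38, adjusted p = 2.64e-06) and muscle by 2.16 (SE 0.39, adjusted p = 7.52e-06) in 10 of 10 animals each, and liver by 1.54 (SE 0.38, adjusted p = 0.000448) in 9 of 10, all in edgeR. Among liver, fat and muscle no pair was called, although liver exceeded fat without cow 5 (1.04, adjusted p = 0.0199). Pituitary was thus the highest tissue for SLC2A6 and SLC2A13 by mean, fat for SLC2A3 and SLC2A8, muscle for SLC2A4 and SLC2A12, and liver for SLC2A2, SLC2A5 and SLC2A10. Of these, the highest tissue was above each other tissue by the test for SLC2A2, SLC2A3, SLC2A4, SLC2A10 and SLC2A13.

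The scaling of the libraries matters for the smaller differences. The TMM factors had medians of 0.766 in liver, 0.725 in muscle, 1.28 in fat and 1.37 in pituitary, so library sizes alone shift all log2 fold changes by -0.72 between liver and fat, 0.09 between liver and muscle, -0.84 between liver and pituitary, 0.81 between fat and muscle, -0.13 between fat and pituitary and -0.94 between muscle and pituitary. No called difference of a member turned direction under library sizes alone or under RLE factors. With library sizes alone the calls of SLC2A8 between liver and muscle (-0.83, adjusted p = 0.0560) and of SLC2A10 between liver and pituitary (0.20, adjusted p = 0.617) were lost. New calls appeared for SLC2A1, which became lower in liver than in pituitary (-0.99, adjusted p = 0.00995), lower in muscle than in pituitary (-1.22, adjusted p = 0.00204) and higher in fat than in muscle (0.89, adjusted p = 0.0229). SLC2A8 was then also called higher in fat than in muscle (1.42, adjusted p = 0.00100) and lower in muscle than in pituitary (-1.01, adjusted p = 0.0157), SLC2A10 higher in fat than in muscle (1.58, adjusted p = 0.000638), and SLC2A6 lower in fat than in pituitary (-0.83, adjusted p = 0.0301). The split of members' calls became 6 higher in fat and 2 higher in muscle, and 1 higher in liver and 7 higher in pituitary. The share of all called genes that was higher in the tissue named first moved as well, from 44.9% to 23.2% for liver and fat, from 45.6% to 21.4% for liver and pituitary, from 55.0% to 80.1% for fat and muscle, and from 49.3% to 21.0% for muscle and pituitary.

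Between the sexes, 0 of the 10 members were called in any tissue. Following the study, each tissue was tested with the edgeR likelihood ratio test over its 10 libraries. The test called 23 genes in liver (0.175% of all genes), 15 in fat (0.114%), 68 in muscle (0.517%) and 98 in pituitary (0.745%). The smallest adjusted p of a member was 0.323 in muscle, 0.365 in fat, 0.5002 in pituitary and 0.659 in liver. At an unadjusted p below 0.05 there was 1 member in each tissue, among 980, 905, 1445 and 1219 genes. Over all tissues together, with the tissue as a covariate, the likelihood ratio test called 222 genes (1.69%) and 0 members, with the smallest adjusted p of a member at 0.392 and 0 members at an unadjusted p below 0.05. The quasi-likelihood test and DESeq2 also called 0 members in each tissue and over all tissues, and so did voom with the animal as a block over all tissues. The values of cows and bulls overlapped in all 40 combinations of member and tissue. The same share over all genes was not taken, so this overlap is not a separate result about the members.

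**Figure D3:**
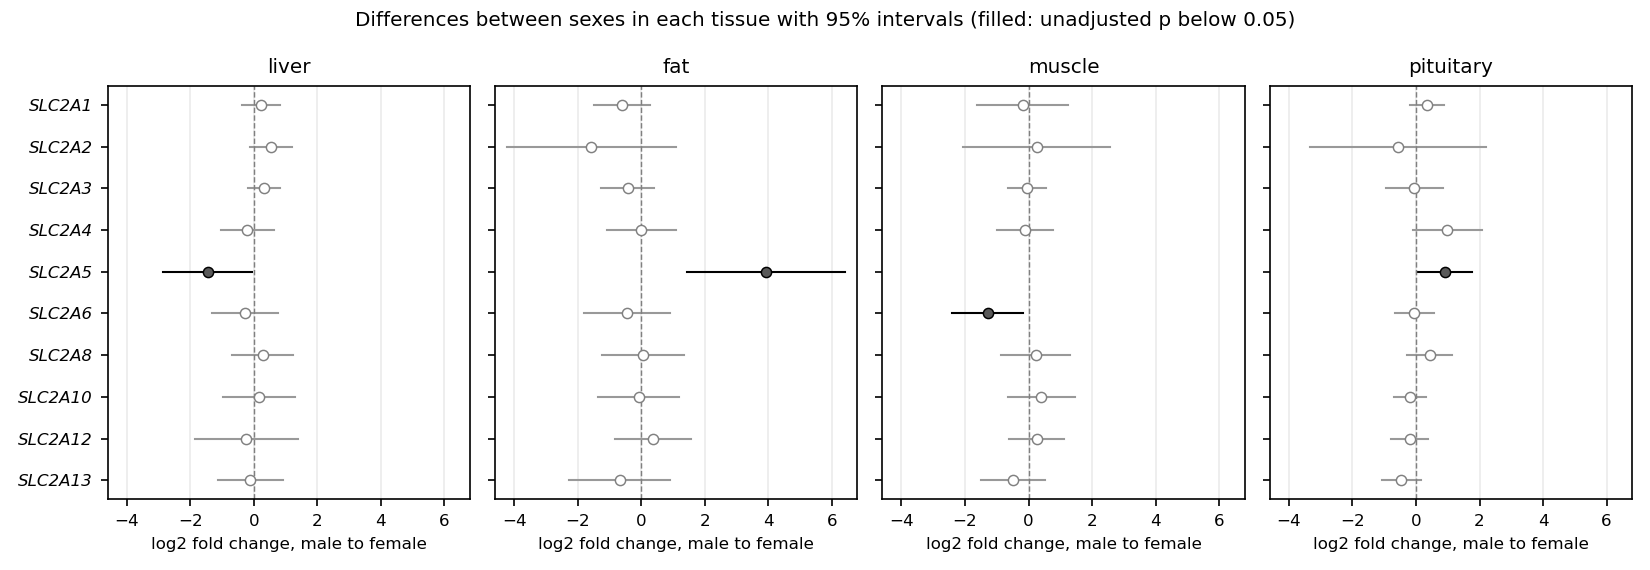
Log2 fold change of male to female for each member (rows) in liver, fat, muscle and pituitary (panels), from the edgeR likelihood ratio fit of 5 bulls and 5 cows per tissue, with 95% intervals; values above 0 are higher in bulls. Filled points had an unadjusted p below 0.05, which was 1 member per tissue, and no point passed adjustment; SLC2A5 in muscle, with 2 reads in all, is not drawn.

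SLC2A5 was the member with an unadjusted p below 0.05 in 3 of the tissues. In liver the cows held 0.421, 6.40, 6.43, 8.80 and 31.7 CPM, and the bulls 0.806, 1.86, 4.45, 4.47 and 7.46 CPM. The log2 fold change of male to female was -1.45 (SE 0.71, unadjusted p = 0.0440, adjusted p = 0.659), -1.21 without the library labelled bull 3 and -0.52 without cow 2. In fat the cows held 0 to 0.157 CPM, and the bulls 0, 0.232, 0.271, 0.332 and 5.05 CPM. The log2 fold change was 3.93 (SE 1.27, unadjusted p = 0.00230, adjusted p = 0.365) and 1.54 without bull 4 (adjusted p = 0.910). In pituitary the cows held 0.410, 1.88, 2.03, 2.97 and 3.66 CPM, and the bulls 2.37, 3.92, 3.96, 4.20 and 6.13 CPM. There the log2 fold change was 0.91 (SE 0.44, unadjusted p = 0.0407, adjusted p = 0.5002). The direction in liver was thus opposite to that in fat and pituitary. The test of whether the sex difference depends on the tissue, a likelihood ratio test of the interaction terms, called 44 genes (0.335%) and 0 members. SLC2A5 came closest with an adjusted p of 0.0542, which was 0.0388 without bull 5, 0.0458 without bull 3, 0.0265 without cow 5 and 0.0153 without cow 4, but 0.498 without bull 4, 0.399 by the quasi-likelihood test and 0.685 by voom with the animal as a block.

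SLC2A6 was the member with an unadjusted p below 0.05 in muscle. The cows held 0.552, 0.762, 1.45, 1.92 and 2.16 CPM from 4 to 25 reads, and the bulls 0.331, 0.521, 0.525, 0.529 and 0.829 CPM from 2 to 6 reads. The log2 fold change was -1.29 (SE 0.57, unadjusted p = 0.0201, adjusted p = 0.323). Leukocyte markers in muscle summed to 67.1 to 162 CPM in cows and 34.1 to 89.6 CPM in bulls, and their part in this difference was not tested. For the other members the 95% intervals of the sex differences in each tissue included 0, though not all estimates were small. In liver SLC2A2 was 0.54 (95% interval -0.13 to 1.20), in pituitary SLC2A4 was 0.99 (-0.08 to 2.07), and in muscle SLC2A4 was -0.12 (-0.99 to 0.76), all as log2 fold change of male to female. These intervals include 0 and leave room for differences between the sexes that 5 animals per sex did not resolve.

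The genes around glucose transport were described by a list of 44, of which 34 were in the tables, grouped by what they do. In liver against fat and in liver against muscle 28 of the 34 were called (82.4%, against 64.3% and 62.1% of all genes). Liver against pituitary and fat against muscle had 22 each (64.7%, against 64.5% and 59.6%), fat against pituitary had 21 (61.8%, against 64.6%) and muscle against pituitary 25 (73.5%, against 64.0%). The calls split into 16 higher in liver and 12 higher in fat, 10 higher in liver and 18 higher in muscle, 14 higher in liver and 8 higher in pituitary, 9 higher in fat and 13 higher in muscle, 13 higher in fat and 8 higher in pituitary, and 18 higher in muscle and 7 higher in pituitary. With library sizes alone these splits were 11 and 16, 10 and 18, 9 and 18, 16 and 10, 10 and 8, and 12 and 11. Without the fat library of bull 5, 18 were called in fat against pituitary and 24 in liver against pituitary, and without the liver library labelled bull 3, 27 in liver against fat and 23 in liver against pituitary, with the other counts unchanged. The median absolute log2 fold change of the list lay between 0.67 in fat against pituitary and 1.73 in liver against muscle, where the medians over all genes were 0.99 and 1.05. Between the sexes 0 of the 34 were called in any tissue, with 6 at an unadjusted p below 0.05 in liver, 2 in muscle, 1 in pituitary and 0 in fat. Of all genes, 7.45% were under that p in liver, 10.99% in muscle, 9.27% in pituitary and 6.88% in fat.

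Beside SLC2A2, liver was the highest tissue by mean for genes that release glucose or break down fructose. G6PC, the catalytic subunit of glucose-6-phosphatase that frees glucose for export, held 722 ± 393 CPM in liver (419.7 to 1623) and at most 1.39 CPM in any library of another tissue. Its log2 fold change was 9.77 against fat, 10.41 against muscle and 12.28 against pituitary, with adjusted p-values of at most 6.21e-25 in the edgeR quasi-likelihood test. SLC37A4, the carrier that brings glucose-6-phosphate to that enzyme, had low counts (1 to 41 reads in liver) and was higher in liver than in fat (2.85, adjusted p = 0.00101) and pituitary (2.18, adjusted p = 0.00709, lost at 0.0677 with library sizes alone) but not muscle (0.87, adjusted p = 0.287). KHK, the kinase that commits fructose to breakdown, held 309 ± 140 CPM in liver against 21.5 ± 17.2 CPM in fat, 6.18 ± 1.99 CPM in muscle and 15.3 ± 2.40 CPM in pituitary. The liver libraries of G6PC and KHK lay above all others. KHK in pituitary was lower than in liver by a log2 fold change of 4.33 (adjusted p = 8.35e-16 in edgeR), whereas that of SLC2A5 was 1.42, a difference between genes that was not tested. HKDC1, a protein with hexokinase domains, was highest in pituitary with 8.59 ± 6.20 CPM against 1.25 ± 0.962 CPM in liver (log2 fold change 2.74, adjusted p = 2.19e-06). HNF4A, a nuclear receptor of hepatocytes, held 950 ± 325 CPM in liver, 27.0 ± 10.8 CPM in fat, 0.883 ± 1.04 CPM in muscle and 0.131 ± 0.165 CPM in pituitary.

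Sodium-coupled transporters move glucose against its gradient. SLC5A1 held 9.65 ± 6.61 CPM in liver, from 2.73 to 25.3 CPM, and at most 3 reads in any library of another tissue, with log2 fold changes of liver of 8.26 against fat, 7.29 against muscle and 6.85 against pituitary (adjusted p of at most 7.49e-15 in edgeR). SLC5A2 was lowest in muscle, at 4.69 ± 1.82 CPM, below liver by 1.79 (adjusted p = 4.46e-07), fat by 2.05 (adjusted p = 4.1e-08) and pituitary by 1.87 (adjusted p = 1.63e-07). Liver, fat and pituitary, at 16.4 to 19.6 CPM, were not called apart. With library sizes alone liver was called lower than fat (-0.91, adjusted p = 0.00285) and pituitary (-0.89, adjusted p = 0.00344).

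Beside SLC2A4, muscle was the highest tissue by mean for several genes of insulin-driven and contraction-driven uptake. TBC1D4, the Akt substrate that holds GLUT4 vesicles inside the cell until insulin acts, held 232 ± 42.3 CPM in muscle (156.3 to 283), 67.9 ± 23.7 CPM in fat, 32.7 ± 12.1 CPM in liver and 13.4 ± 2.39 CPM in pituitary. This is the order of SLC2A4 except that liver and pituitary were exchanged. Liver exceeded pituitary by 1.25 (adjusted p = 6.5e-07), and by 0.40 with library sizes alone (adjusted p = 0.0888). Muscle exceeded fat by a log2 fold change of 1.76 (adjusted p = 5.11e-10) and every muscle library lay above every library of another tissue. SNAP23, a SNARE protein of vesicle fusion, was higher in muscle than in fat by 2.75 (adjusted p = 2.56e-07) and than in pituitary by 2.46 (adjusted p = 1.16e-06), but was not called apart between muscle and liver (0.69, adjusted p = 0.118). Of the 4 insulin signalling genes in the tables, 3 were higher in muscle than in liver and 0 lower, 2 were higher than in fat and 1 lower, and 3 were higher than in pituitary and 1 lower. Of the 8 regulators of transporter genes, 4 were higher in muscle than in liver and 3 lower, 4 were higher than in fat and 2 lower, and 6 were higher than in pituitary and 1 lower. Of the 8 vesicle traffic genes, 5 were higher in muscle than in liver and 0 lower, 4 were higher than in fat and 1 lower, and 5 were higher than in pituitary and 1 lower. Of all genes, 34.0% were higher in muscle than in liver and 28.0% lower, 26.8% and 32.8% against fat, and 31.5% and 32.5% against pituitary. These roles hold 4 to 8 genes each, and their counts were not tested against those shares. The counts depend on the scaling. With library sizes alone the sign of called differences turned for VAMP2 and AKT2 between fat and muscle and for TBC1D1 and STX4 between muscle and pituitary. The same held for RAB10 and PIK3CA between liver and fat. PRKAA1 and PRKAA2, the catalytic subunits of AMP-activated kinase, held 157 ± 55.0 CPM and 53.0 ± 7.88 CPM in muscle, above each other tissue with log2 fold changes of 1.71 to 2.49 for PRKAA1 and 1.74 to 3.46 for PRKAA2 (adjusted p of at most 8.51e-09 in edgeR). PIK3CA, a catalytic subunit of the kinase that insulin activates, was higher in muscle than in liver by 1.01, in pituitary by 1.11 and in fat by 1.63, while its regulatory subunit PIK3R1 was highest in liver by mean (235 ± 91.1 CPM) and lowest in pituitary (46.7 ± 16.9 CPM). With library sizes alone the PIK3CA difference of muscle to pituitary was 0.13 (adjusted p = 0.631).

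TXNIP and ARRDC4, arrestin-like proteins that lower glucose uptake by taking transporters such as GLUT1 from the surface, differed between tissues where SLC2A1 did not pass the test. TXNIP held 2138 ± 711 CPM in muscle and 1846 ± 718 CPM in fat against 281 ± 103 CPM in liver and 298 ± 39.4 CPM in pituitary. Every muscle and fat library lay above every liver and pituitary library, with log2 fold changes of 2.63 to 2.93 (adjusted p of at most 1.18e-13 in edgeR). ARRDC4 was lower in liver than in fat, muscle and pituitary by 0.94, 1.57 and 1.44 (adjusted p = 0.0279, 0.000383 and 0.00103), with the first of these lost with the animal as a block (0.78, adjusted p = 0.104).

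**Figure D4:**
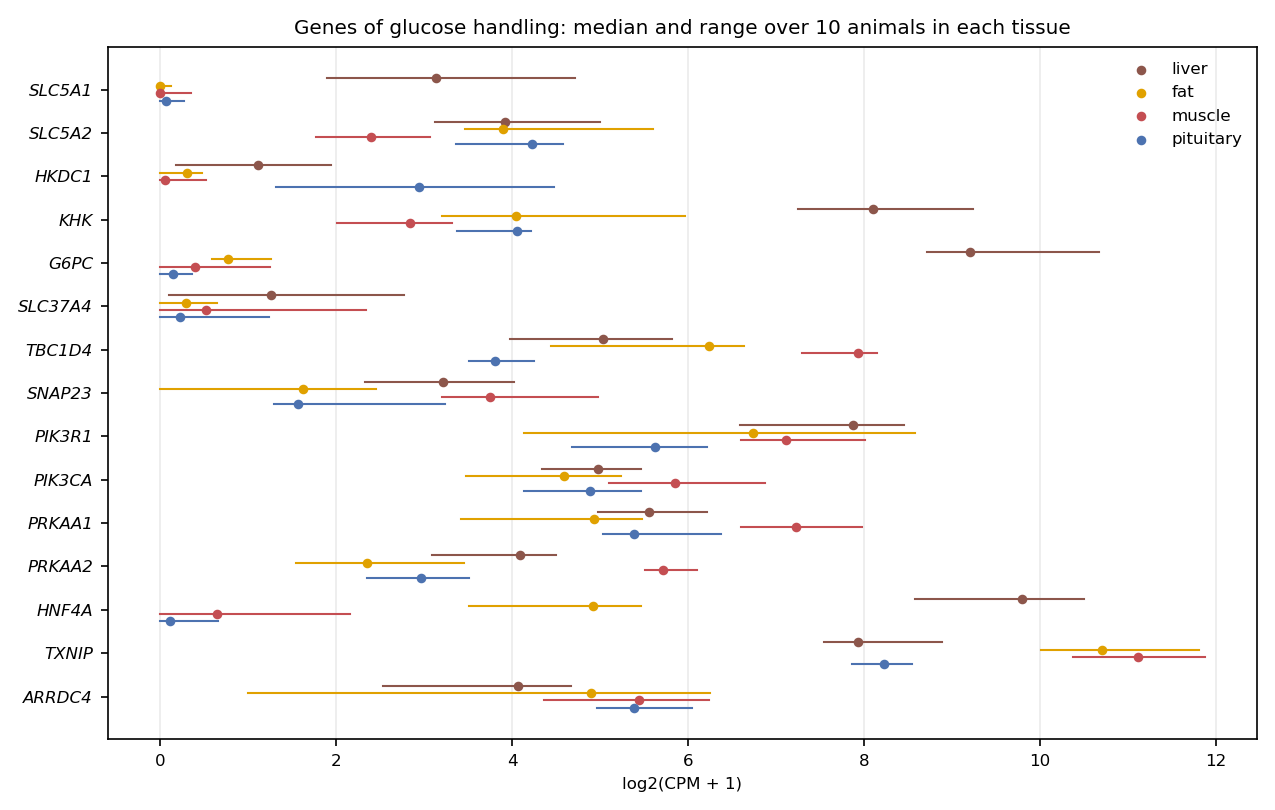
Levels of the named genes of glucose handling in liver (brown), fat (yellow), muscle (red) and pituitary (blue), as log2(CPM + 1), with points at the median and lines from the lowest to the highest of 10 animals. The liver lines of KHK, G6PC, HNF4A and SLC5A1 and the muscle lines of TBC1D4, PRKAA1 and PRKAA2 lie above the lines of all other tissues. Levels are to be read across tissues for 1 gene, not between genes.

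The genes whose levels followed each member most closely were taken by Pearson's r of log2(CPM + 1) over the 40 libraries, among 11452 genes with a mean of at least 1 CPM in a tissue. The points share libraries and tissues, so r mainly describes the tissue pattern. SLC2A2 was followed most closely by CYP2C18, PIK3C2G and ABCB11 (r = 0.998, 0.998 and 0.997), the last a bile salt pump of hepatocytes. SLC2A4 was nearest to RRAD, FHL3 and DBNDD2 (0.959, 0.959 and 0.957), SLC2A12 to AQP4, NCAM1 and LRRN1 (0.961, 0.944 and 0.944), and SLC2A6 to CAPS, RNF112 and NOXA1 (0.943, 0.940 and 0.933). SLC2A3 was nearest to NXPE4, CCDC3 and MCAM (0.914, 0.906 and 0.898), MCAM being an adhesion protein of endothelium and vessel walls. For SLC2A10 they were ARHGEF5, TJP3 and PERP (0.906, 0.903 and 0.900), of which TJP3 and PERP belong to cell junctions. For SLC2A8 they were PYCRL, THAP7 and R3HDM4 (0.895, 0.889 and 0.881), for SLC2A13 IDS, MED12L and DNAL1 (0.889, 0.880 and 0.865), and for SLC2A5 TMEM25, GYLTL1B and ZBTB9 (0.855, 0.846 and 0.825). SLC2A1 had the loosest match, with NUP188, POLRMT and TNPO2 at 0.761, 0.760 and 0.754.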

How the data were processed

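Libraries of mRNA, taken from total RNA by poly-A selection per the study's methods, came from 4 tissues of 10 Korean cattle. They were grouped by the tissue and sex in the submitters' labels, and the animal was taken from the ear tag in the title. Per the submitters' processing notes and the study's methods, reads were trimmed (Trimmomatic), mapped with TopHat2 and Bowtie2 on the cattle genome bosTau7 of UCSC, sorted (SAMtools) and assigned to genes (HTSeq). What the authors deposited are raw read counts by gene symbol, 1 file for each library, not normalized. Whether counting used strand is not given in the sources used here. The row without a gene name held 0.114% to 2.69% of reads and was not used. Of the 13570 genes, the 13148 with any read entered the tests.

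TMM factors and tests came from edgeR 4.0.16 in R 4.3.3. Tissue pairs were tested with the quasi-likelihood test over all 40 libraries with sex as a covariate, sex within a tissue with the likelihood ratio test, as in the study's methods, and sex over tissues and its interaction with tissue with the likelihood ratio test. Fold changes used a prior count of 0.125. Adjusted p-values are Benjamini-Hochberg values over all genes of a test. Same-animal libraries of different tissues deviated from their group means together on average (mean r 0.169 over 60 pairs, range -0.450 to 0.560). The mean over 240 pairs of different animals of a sex, -0.042, follows largely from the centring of each group and is not a separate comparison. The titles name the animal, so fits with the animal as a block were run as alternatives, for sex with voom in limma 3.58.1. DESeq2 1.42.0, RLE factors, filterByExpr, library sizes alone (added after the data were seen) and leaving out animals or libraries were the other alternatives. Standard errors come from the fitted negative binomial models. Depth sets the precision: 3 reads are 0.157 to 0.580 CPM. Scripts were tested on simulated data. All members are named; a sex difference is given singly at an unadjusted p below 0.05; per role at most 2 handling genes with the widest range of tissue means are named, of which some are not reported here. The members and lists were chosen with earlier results of these data known. Symbols of all 10 members matched RefSeq; no coordinates are given because that table has another build. No columns of the authors' own comparisons were used. That animals are separate donors was taken from their ear tags and was not tested. The liver library labelled bull 3 held 0 reads of DDX3Y, USP9Y and ZFY, unlike the other libraries of that tag. It was still paired with them in the animal block and in the counts of animals.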

Additional observations from a re-analysis of the deposited data

Results flagged for a closer look

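Within each tissue and sex, the highest and the lowest of 5 animals was set against the others by Dixon's gap ratio on log2(CPM + 1), for the 64 groups with at least 50 reads in all. Of these, 6 held a sample past Dixon's 95% critical value, and chance alone flags about 1 in 20 groups.

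SLC2A1 in fat was 23.97 CPM in bull 1, above the 10.8 to 11.99 CPM of the 4 remaining bulls. SLC2A4 in fat was 53.2 CPM in cow 4 and 9.60 to 15.3 CPM in the other cows, the same animal that had the highest SLC2A4 in muscle. SLC2A5 in fat was 5.05 CPM in bull 4, while it was at most 0.332 CPM in the other bulls. SLC2A6 in pituitary was 3.48 CPM in cow 3 against 9.02 to 12.7 CPM in the other cows. SLC2A13 in fat was 0.0773 CPM in bull 5, from 1 read, against 0.831 to 1.18 CPM in the other bulls, and this is the fat library with low Y-linked reads. SLC2A13 in pituitary was 1.60 CPM in bull 3 against 4.50 to 5.33 CPM in the other bulls.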

How the results depend on the processing

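The counts of members called in the 6 tissue pairs stayed within 1.5 times of the given counts under the likelihood ratio test, DESeq2, RLE factors, filterByExpr, the replicate block and each animal or library left out. The exception was library sizes alone, with 8 members called between fat and muscle instead of 5. With the replicate block, the counts were 8, 7, 8, 5, 7 and 6 in the order of the report, SLC2A6 between fat and pituitary (-0.90) and SLC2A3 between muscle and pituitary (0.58) were added, and no other call of a member changed. The 0 calls between the sexes held in every tissue and over all tissues under each alternative run, with the replicate block where it could be fitted. For the interaction of sex and tissue the count ran from 0 to 1 when single animals were left out, the 1 being SLC2A5 without bull 3, bull 5, cow 4 or cow 5.

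The log2 fold changes that turned sign had no call in the reported fit. For SLC2A1 these were 0.32 in liver against muscle and 0.14 in fat against muscle with the replicate block, 0.084 in liver against muscle with DESeq2 and 0.087 with RLE factors, and, with library sizes alone, -0.66 in liver against fat, 0.23 in liver against muscle and 0.89 in fat against muscle. With library sizes alone SLC2A13 was -0.040 in liver against fat and 0.76 in fat against muscle, SLC2A2 was 0.20 in fat against muscle, SLC2A3 -0.43 in muscle against pituitary and SLC2A12 -0.43 in muscle against pituitary. RLE factors shifted all fold changes by at most 0.13. With animals or libraries left out, the ranges that crossed 0 were, for SLC2A1, -0.12 to 0.23 in liver against fat, -0.20 to 0.63 in liver against muscle, -0.27 to 0.40 in fat against muscle and -0.70 to 0.0052 in muscle against pituitary. They were -1.01 to 0.050 for SLC2A2 in fat against muscle, -0.16 to 0.28 for SLC2A6 in liver against muscle, -0.18 to 0.16 for SLC2A8 in muscle against pituitary and -0.42 to 0.22 for SLC2A13 in fat against muscle. Beyond what follows from the scaling factors, the cause was not tested.

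Depth limits SLC2A2 outside liver, SLC2A5 in muscle and SLC2A12 in liver, where libraries hold 0 to 4 reads. DESeq2 gave no adjusted p for SLC2A5 between the sexes in fat.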

Other observations

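SLC2A11, a further transporter gene of the family that is not among the 10 members, was in the tables. It held 38 to 111 reads per pituitary library, or 3.84 to 9.91 CPM by library size, and 0 to 6 reads in each library of the other tissues.

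Members were compared with each other within a tissue over the 10 animals, a comparison chosen after the values were seen. Of 106 relations among members with a mean of at least 1 CPM, 15 had a permutation p below 0.05 for Pearson's r (100000 resamples, two-sided), and 0 passed Benjamini-Hochberg adjustment over the 106. The largest was SLC2A6 with SLC2A8 in fat (r = 0.907, p = 0.00109, adjusted p = 0.0965; rho = 0.855, p = 0.00339, adjusted p = 0.0983), with r = 0.864 without the 2 animals farthest from the median of SLC2A6 and 0.944 after centring each sex. SLC2A1 with SLC2A4 in muscle had r = 0.863 (p = 0.00205, adjusted p = 0.0965; rho = 0.794, p = 0.00915, adjusted p = 0.162), and r = 0.591 without the 2 farthest animals. Both genes share the TMM factor of each library, and this relation was not tested with library sizes alone. SLC2A3 with SLC2A4 in fat went the other way (r = -0.81, p = 0.00575, adjusted p = 0.122; rho = -0.85, p = 0.0033, adjusted p = 0.0983), with r = -0.75 without the 2 farthest animals.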
